A study of Rattus norvegicus with 20 samples.

Results

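Fabp7, Sox2, Ptprz1, Notch1 and Prom1 are genes of radial glia and neural progenitors, the dividing cells of the embryonic cortex, and they were followed here in rat cultures of subplate neurons. The 5 genes were picked by symbol from the authors' deposited list of expressed genes, with the coculture results of these arrays already known. They stood on 6 of its 17243 probe sets, and the whole value table held 31099. Ptprz1 has a pair of probe sets, 1368350_at, designed on the receptor's mRNA and listed with a second name, and 1388015_at, designed on phosphacan. The symbol cell of the Sox2 probe set 1379942_at was empty, and it was found through its Entrez identifier. The probe sets of Sox2 and Notch1 (1371491_at) were designed on expressed sequence tags.

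The study asked how transcripts of subplate neurons change when a feeder layer induces synapses. Cells of the posterior neocortex of rat embryos at embryonic day 17 were selected by panning with an antibody against p75, a neurotrophin receptor, and the cells that stuck were grown on coverslips in serum-free medium. The 5 control cultures at each time stood over empty wells. The 5 cocultures at each time stood for 24 h or 96 h above a dense layer of the cortical cells left over from the panning, kept apart from it by wax spacers, and no strain, genotype or drug is named for any group. RNA of generally 6 pooled coverslips was amplified in repeated rounds and hybridised to 20 Affymetrix arrays. Values are log2 ratios to each probe set's median over the 20 arrays, so 0 is that median, a difference of 1 is a 2-fold change, and levels of different genes cannot be compared. With 5 arrays a group, that number limits the precision.

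Radial glia are the stem cells of the developing cortex. They divide next to the ventricle, give rise to neurons and later to astrocytes and oligodendrocyte precursors, and many of the genes used to recognise them stay on in glia. Notch receptors, activated by ligands on neighbouring cells, are cut within the membrane so that their inner part can enter the nucleus, where it acts with the DNA-binding protein RBPJ on targets of the Hes and Hey families and holds progenitors undifferentiated. Sox2, a transcription factor of the high mobility group, keeps neural progenitors proliferating, and Fabp7 (brain lipid binding protein), a fatty acid carrier of radial glia, is known in the mouse as a target of Notch.

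Fabp7, Sox2, Ptprz1 and Notch1 were higher in the cocultures than in the controls at both times, and Prom1 was close to its control. On the 5 probe sets of those 4 genes, every coculture array lay above every control array at 24 h and at 96 h. That held for 1.62% of 31042 probe sets at 24 h and for 6.04% at 96 h, and at an adjusted p under 0.05 in limma 1.21% and 14.1% of probe sets were higher in coculture. The genes were chosen with these differences known, so no test is given for them. The arrays measured whole cultures, in which fewer cells of a type and less RNA per cell cannot be told apart.

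RefSeq start regions of rat assembly GRCr8 are shown for the 3 of the higher genes that have an entry, because these genes moved together. Each runs from 250 bases before to 50 bases after the annotated start, on the strand of the gene, at chr3:29721564-29721863 (minus strand) for Notch1, chr2:119464881-119465180 (plus strand) for Sox2 and chr20:37669356-37669655 (plus strand) for Fabp7. Capitals mark the N-box CACNAG, a site type bound by Hes proteins, on either strand.
Notch1: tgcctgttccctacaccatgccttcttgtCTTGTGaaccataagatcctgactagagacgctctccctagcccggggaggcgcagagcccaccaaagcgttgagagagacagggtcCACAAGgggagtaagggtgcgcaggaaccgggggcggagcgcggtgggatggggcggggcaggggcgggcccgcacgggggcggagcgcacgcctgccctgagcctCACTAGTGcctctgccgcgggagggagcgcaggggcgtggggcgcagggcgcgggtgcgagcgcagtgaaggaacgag
Sox2: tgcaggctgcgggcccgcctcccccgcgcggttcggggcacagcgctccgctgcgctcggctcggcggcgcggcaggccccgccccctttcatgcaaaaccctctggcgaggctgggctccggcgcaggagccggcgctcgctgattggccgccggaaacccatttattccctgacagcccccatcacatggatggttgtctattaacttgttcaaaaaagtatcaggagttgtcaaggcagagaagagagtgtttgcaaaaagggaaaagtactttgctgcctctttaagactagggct
Fabp7: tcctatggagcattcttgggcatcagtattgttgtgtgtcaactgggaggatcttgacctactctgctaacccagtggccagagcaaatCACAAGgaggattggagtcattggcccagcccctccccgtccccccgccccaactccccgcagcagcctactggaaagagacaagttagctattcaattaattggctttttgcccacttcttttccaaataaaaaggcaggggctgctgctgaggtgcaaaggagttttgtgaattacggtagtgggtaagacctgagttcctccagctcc

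The N-box stood 4 times in the Notch1 window, 221, 134, 28 and 26 bases before the start, and the last pair overlap on opposite strands. Fabp7 held it once, 161 bases before the start, and the Sox2 window held none. It is a common motif, present in 43.1% of 33469 RefSeq start regions of the same length. The RBPJ core TGGGAA (25.7% of start regions), the SOX cores ACAAAG (18.8%) and ACAATG (13.2%) and the POU octamer ATGCAAAT (1.78%) were searched on both strands and have no match in these 3 windows. Prom1 has 2 start regions in the table, and an N-box 166 bases before one of the starts was the single match in them. The Notch1 and Sox2 windows are rich in G and C, with 69.0% and 60.7% and 26 and 23 CpG dinucleotides, against a median of 51.67% and 7 over all start regions. Fabp7 lay at 51.3% with 4 CpG.

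Notch1, the receptor of the pathway, was higher by 1.56 ± 0.20 (log2 difference and standard error, n = 5 arrays a group) at 24 h, a 2.96-fold difference. In replicates 1 to 5 of the 24 h controls its log2 ratio was -0.73, -1.11, -1.09, -0.82 and -0.42, and in the 24 h cocultures it was 0.59, 0.74, 0.61, 0.48 and 1.22. In the 96 h controls the values were -1.07, -1.15, -1.19, -0.90 and -0.45, and in the 96 h cocultures 0.59, 0.33, 0.49, 0.57 and 1.44. The groups were apart at both times, and replicate 5 was the highest array of each of the 4 groups. The difference at 96 h was 1.64 ± 0.20, or 3.11-fold, and within same-numbered pairs it ran from 1.30 to 1.85 at 24 h and from 1.47 to 1.89 at 96 h.

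Ptprz1 encodes a receptor-type tyrosine phosphatase of radial glia, astrocytes and oligodendrocyte precursors that binds pleiotrophin and midkine, and its secreted form is the proteoglycan phosphacan. On the phosphacan probe set the 24 h controls stood at -2.02, -0.83, -1.16, -0.55 and -1.0 and the 24 h cocultures at 0.40, 0.61, 0.42, 0.72 and 0.94. After 96 h the controls stood at -2.53, -2.04, -1.99, -1.78 and -1.79 and the cocultures at 0.47, 0.70, 0.54, 0.73 and 0.81. The control arrays were lower at 96 h in every same-numbered pair, while the cocultures of the 2 times covered the same range. The coculture difference was 1.73 ± 0.21 at 24 h and 2.68 ± 0.21 at 96 h (3.32-fold and 6.39-fold).

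On the receptor probe set the groups were apart too. Its 24 h values ran from -1.50 to -0.42 in controls and from 0.43 to 0.73 in cocultures, and its 96 h values ran from -2.13 to -1.27 and from 0.32 to 0.86. The coculture difference was 1.41 ± 0.18 at 24 h and 2.30 ± 0.18 at 96 h. Replicate 1 was the lowest control array on both probe sets at both times.

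Sox2 was higher by 2.60 ± 0.22 at 24 h, 6.07-fold, and by 3.13 ± 0.22 at 96 h, 8.72-fold. The 24 h controls stood at -2.26, -2.01, -1.80, -1.17 and -1.47 and the 24 h cocultures at 0.82, 0.64, 0.86, 0.76 and 1.23. The 96 h controls stood at -2.33, -1.99, -2.01, -2.36 and -1.18 and the 96 h cocultures at 1.30, 1.05, 0.71, 1.39 and 1.31. The highest control array, at -1.17, lay below the lowest coculture array, at 0.64. The differences ranked 10 and 12 from the top of 31042 probe sets at 24 h and 96 h.

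Fabp7 had the largest coculture difference of all 31042 probe sets at both times, 4.75 ± 0.58 at 24 h (26.9-fold) and 5.34 ± 0.58 at 96 h (40.5-fold). Its log2 ratio in the 24 h controls was -5.44, -5.09, -4.19, -0.98 and -3.55, and in the 24 h cocultures 0.69, 0.76, 0.58, 0.92 and 1.57. In the 96 h controls it was -4.95, -3.88, -3.20, -5.45 and -4.42, and in the 96 h cocultures 1.10, 1.03, 0.63, 0.73 and 1.31. The spread lay among the controls, with an SD of 1.77 at 24 h and 0.89 at 96 h against 0.39 and 0.28 in the cocultures. Whether the control values lay near background cannot be read from ratios, and the size of the fold depends on it. Control replicate 4 at 24 h stood apart from the other controls, and without it the 24 h difference was 5.47. On that array Apoe, a lipid carrier of astrocytes, stood at 0.03, against -2.24 to -1.16 on the other 24 h controls, and the mean of the 16 measured astrocyte genes was -0.07 against -0.54 to -0.38. Its mean over the oligodendrocyte lineage genes, -0.65, was within the range of the other 24 h controls. Sox2 was highest on the same array among the 24 h controls.

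Prom1 (CD133), a glycoprotein of membrane protrusions that is used as a surface marker of neural stem cells, went another way. The 24 h controls stood at 0.04, 0.24, 0.10, -0.04 and 0.55 and the 24 h cocultures at 0.17, 0.22, 0.20, 0.05 and 0.57. The 96 h controls stood at -0.66, -0.27, -0.56, -0.38 and -0.28 and the 96 h cocultures at -0.25, 0.05, -0.05, -0.39 and -0.10. Controls and cocultures overlapped at each time, and the difference was 0.07 ± 0.13 at 24 h and 0.29 ± 0.13 at 96 h. The 96 h controls lay below the 24 h controls without overlap, as did 1.27% of the 31042 probe sets.

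**Figure D1:**
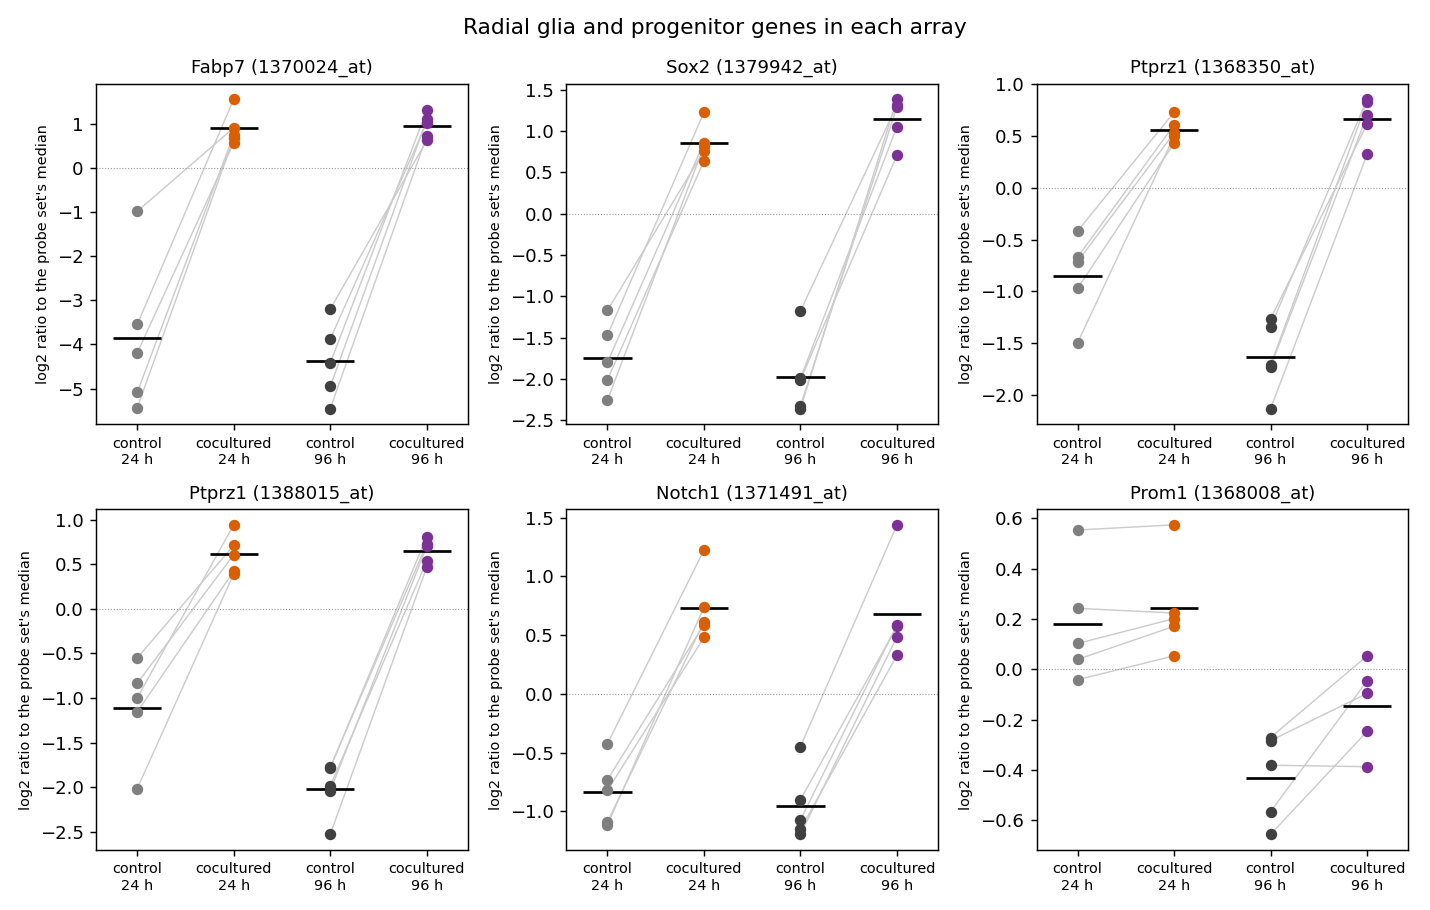
Each panel plots the log2 ratio of one probe set to its median in the 20 arrays (points) by group, with the group mean (black line) and grey lines joining arrays of the same replicate number. Coculture arrays lie above all control arrays in every panel but that of Prom1, and control replicate 4 at 24 h is the high Fabp7 control at -0.98.

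In order of level, the Fabp7, Sox2 and Notch1 means ran from the 96 h controls through the 24 h controls to the cocultures, whose order by time differed between the genes. Notch1 averaged -0.95 ± 0.30 (SD, n = 5) and -0.84 ± 0.28 in the 96 h and 24 h controls, and 0.68 ± 0.43 and 0.73 ± 0.29 in the 96 h and 24 h cocultures. Sox2 averaged -1.97 ± 0.48, -1.74 ± 0.43, 1.15 ± 0.28 and 0.86 ± 0.22 in the same order, and Fabp7 -4.38 ± 0.89, -3.85 ± 1.77, 0.96 ± 0.28 and 0.90 ± 0.39. For these 3 genes the neighbours of the same treatment overlapped. The phosphacan probe set stood at -2.02 ± 0.31 in the 96 h controls, -1.11 ± 0.55 in the 24 h controls and 0.62 ± 0.23 and 0.65 ± 0.14 in the 24 h and 96 h cocultures.

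The change with time was tested next. This test uses the same arrays whose coculture differences were known when the genes were chosen, so its p-values are not independent of that choice. None of the 6 probe sets passed an adjusted p of 0.05 between 24 h and 96 h in the controls by the limma fit without replicate numbers, in which 0.145% of all probe sets did, and 3 had an unadjusted p under 0.05. These 3 were both probe sets of Ptprz1, with differences of -0.78 ± 0.18 (adjusted p = 0.105) and -0.91 ± 0.21 (adjusted p = 0.0961), and Prom1, with -0.61 ± 0.13 (adjusted p = 0.0729). All 5 same-numbered pairs were lower at 96 h for each of them. With replicate number added to the model as a block, the adjusted p was 0.00103, 0.00084 and 0.00132, so that 3 of 6 fell, against 0.715% of all probe sets. The other probe sets were Sox2 at -0.23 ± 0.22, Notch1 at -0.12 ± 0.20 and Fabp7 at -0.53 ± 0.58, and the Fabp7 difference was 0.19 without control replicate 4 at 24 h.

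In the cocultures the same test over time called 0 of 6 probe sets (0.999% of all), and 1 had an unadjusted p under 0.05. That was Prom1, with -0.39 ± 0.13 (adjusted p = 0.21), lower at 96 h in all 5 pairs, and its adjusted p with the block was 0.0108, in a fit that called 8.66% of all probe sets lower. The other differences ran from -0.05 for Notch1 to 0.29 for Sox2. Prom1 thus had lower values at 96 h in controls and in cocultures, while Ptprz1 had them in the controls.

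The change of the coculture difference between 24 h and 96 h was fitted as an interaction. This interaction is the difference of the coculture contrasts known when the genes were chosen, so its p-values serve as a description. In the unblocked limma fit 0 of 6 probe sets passed, as against 0.0193% of all, with 2 at an unadjusted p under 0.05. Both were probe sets of Ptprz1, whose difference was larger at 96 h by 0.89 ± 0.26 (adjusted p = 0.601) and 0.95 ± 0.29 (adjusted p = 0.691). With the replicate block the adjusted p was 0.00761 and 0.0106, and 0.699% of all probe sets were called higher in that fit. Sox2 had an interaction of 0.52 ± 0.31, Fabp7 of 0.59 ± 0.82, Prom1 of 0.22 ± 0.19 and Notch1 of 0.07 ± 0.29. The Fabp7 value turned to -0.13 without control replicate 4 at 24 h, and the Notch1 value to -0.12 without cocultured replicate 5 at 96 h.

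**Figure D2:**
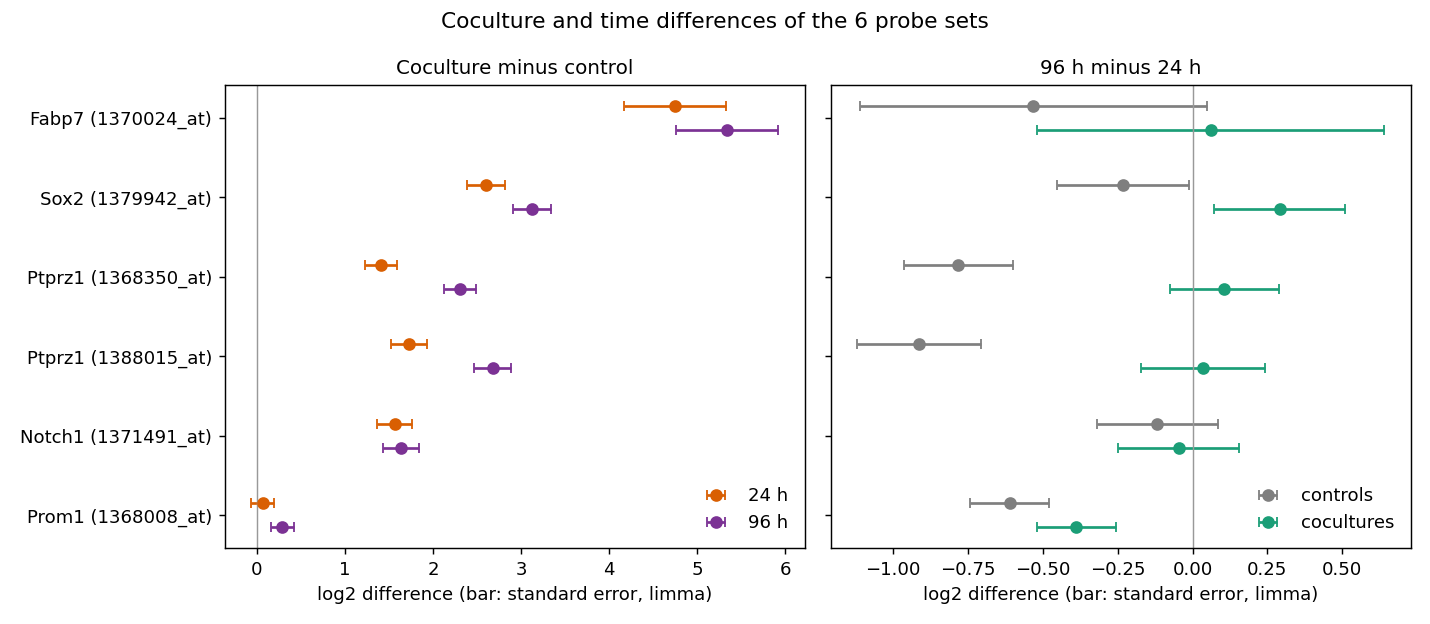
The left panel plots the coculture minus control log2 difference of each probe set at 24 h and 96 h, and the right panel the 96 h minus 24 h difference in controls and in cocultures (points, with standard errors from limma as bars). Fabp7 lies farthest right at 4.75 and 5.34, and both Ptprz1 probe sets lie at -0.78 and -0.91 in the controls and near 0 in the cocultures.

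The arrays differed in the control transcripts added at hybridisation (18 probe sets). The 24 h controls had a mean log2 ratio of -0.54 ± 0.67 (SD over 5 arrays) for these transcripts and the 24 h cocultures 0.32 ± 0.65. After 96 h the means were -0.63 ± 0.66 and 0.70 ± 0.64, and replicate 5 was the highest in each group. With this mean as a covariate the Notch1 difference was 1.19 at 24 h and 1.06 at 96 h, the largest relative shift among the higher genes. Sox2 became 2.35 and 2.74, and Fabp7 4.73 and 5.31. Without replicate 5 in all groups, an alternative chosen after seeing the data, Notch1 was at 1.54 and 1.57.

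**Figure D3:**
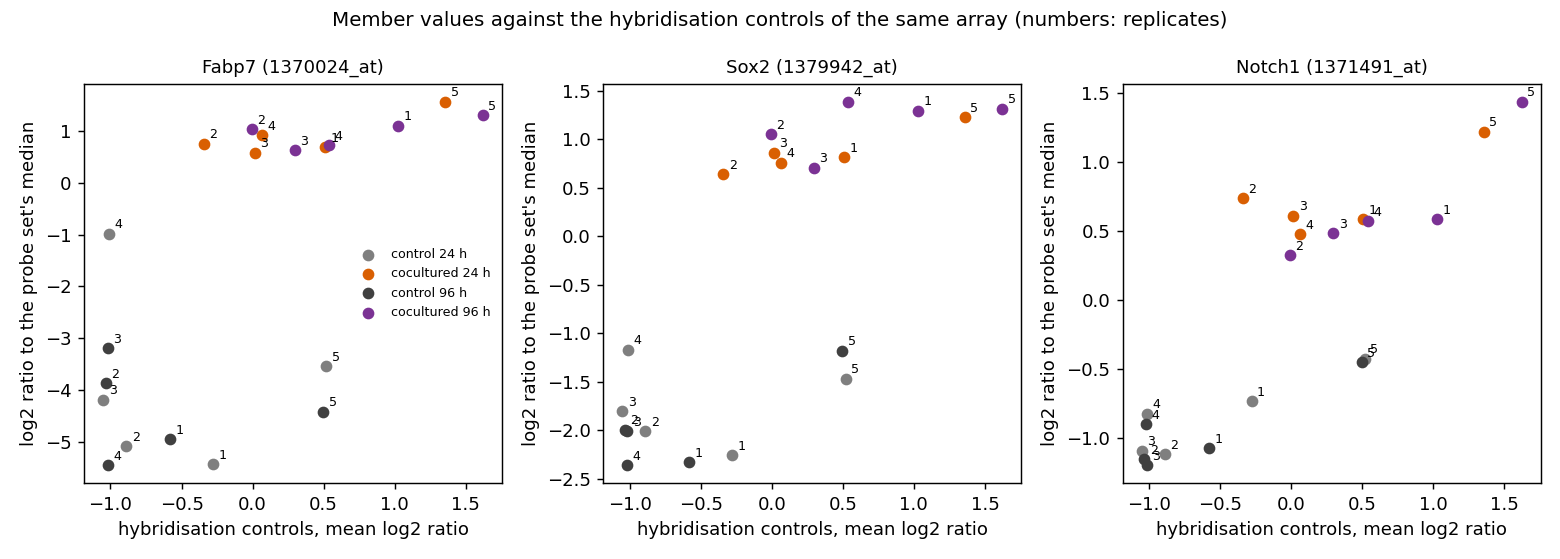
Each point is an array, with the mean log2 ratio of its 18 hybridisation control probe sets on the x axis and the log2 ratio of Fabp7, Sox2 or Notch1 on the y axis, and numbers give the replicate. Cocultures lie above controls in each panel, and replicate 5 is the top Notch1 array of each group, at 1.22 and 1.44 in the cocultures.

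Other genes of radial glia and progenitors were higher in coculture too. Of a list of 31, 14 were measured as named expressed genes. This list and those below were chosen with earlier results of these data known. A gene present in the cocultures alone could count as measured, so the counts and p-values of the lists serve as a description. At 24 h 6 rose and 1 fell, against 2.76% and 7.75% of 8052 genes. At 96 h 9 rose and 1 fell, against 7.36% and 41.5%. With the replicate block 9 rose and 3 fell at each time, in a fit that called 9.12% of genes higher and 38.8% lower at 24 h and 13.0% and 56.9% at 96 h. The median difference of the list was 0.58 and 0.88, and that of all genes -0.19 and -0.34. Ednrb, an endothelin receptor of radial glia and astrocytes, rose by 1.21 ± 0.21 (adjusted p = 0.00104) and 1.91 ± 0.21 (adjusted p = 2.66e-06), and Vim, the intermediate filament vimentin, by 1.12 ± 0.25 and 1.20 ± 0.25. Fgfr3, a fibroblast growth factor receptor, rose by 1.32 ± 0.41 and 1.71 ± 0.41, and its 24 h call was lost without control replicate 4 (adjusted p = 0.1), as was that of Pax6 (adjusted p = 0.0679). Pax6, a transcription factor of cortical and other neural progenitors, was among the genes that rose at both times. Slc1a3, the glial glutamate transporter GLAST, rose by 1.37 ± 0.21 and 1.53 ± 0.21 as a mean of 2 probe sets that disagree, at 2.79 and -0.05 at 24 h. The gene that fell was Msi2, an RNA-binding protein of the Musashi family, at -0.57 ± 0.14 and -0.62 ± 0.14.

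With the hybridisation covariate, 4 genes of this list rose at 24 h and 5 at 96 h. Fgfr3 was then at 0.50 and 0.45 and no longer called, while Ednrb, Slc1a3, Vim and Pax6 were among the 5 called at 96 h. The covariate moved the median of all genes to 0.03 at 24 h and -0.01 at 96 h. Over time, 0 of the 14 passed in controls or in cocultures in the unblocked limma fit, with 0 and 2 at an unadjusted p under 0.05, and with the replicate block 1 fell in controls and 2 rose and 1 fell in cocultures.

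Of the Notch pathway other than Notch1, 21 of 44 genes were measured. At 24 h 1 rose and 1 fell, beside 2.76% and 7.75% of all genes, and with the replicate block 4 rose and 10 fell, beside 9.12% and 38.8%. Hey1, a repressor and direct target of Notch signalling, rose by 1.28 ± 0.17 (adjusted p = 5.69e-05) at 24 h and stood at 0.34 ± 0.17 (adjusted p = 0.0967, and 0.0455 with the block) at 96 h. Numb, an inhibitor of Notch receptors, fell by 0.91 at 24 h (adjusted p = 0.0179) and by 1.45 at 96 h (adjusted p = 0.000151).

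At 96 h 10 of the 21 fell, a share near the 41.5% of all genes that did. They included Numb, the γ-secretase subunits Psen2, Ncstn and Aph1a, the glycosyltransferases Pofut1 and Rfng, which modify the receptor's extracellular part, and the ubiquitin ligases Dtx3, Dtx4 and Itch, and the 10 differences ran from -1.45 to -0.48. The protease Adam17, which can cut Notch at the cell surface, rose by 0.42 ± 0.11 (adjusted p = 0.00675). With the replicate block these calls held, and further genes of the list fell (adjusted p = 0.0024 and 0.0017). That fit called 13.0% of all genes higher and 56.9% lower. With the covariate 3 of the 21 fell at 96 h and none rose, with the list's median at 0.07 instead of -0.45. The median of all genes was then -0.01 instead of -0.34. Hey1 remained at 1.29 at 24 h and Numb at -0.45 and -0.74.

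**Figure D4:**
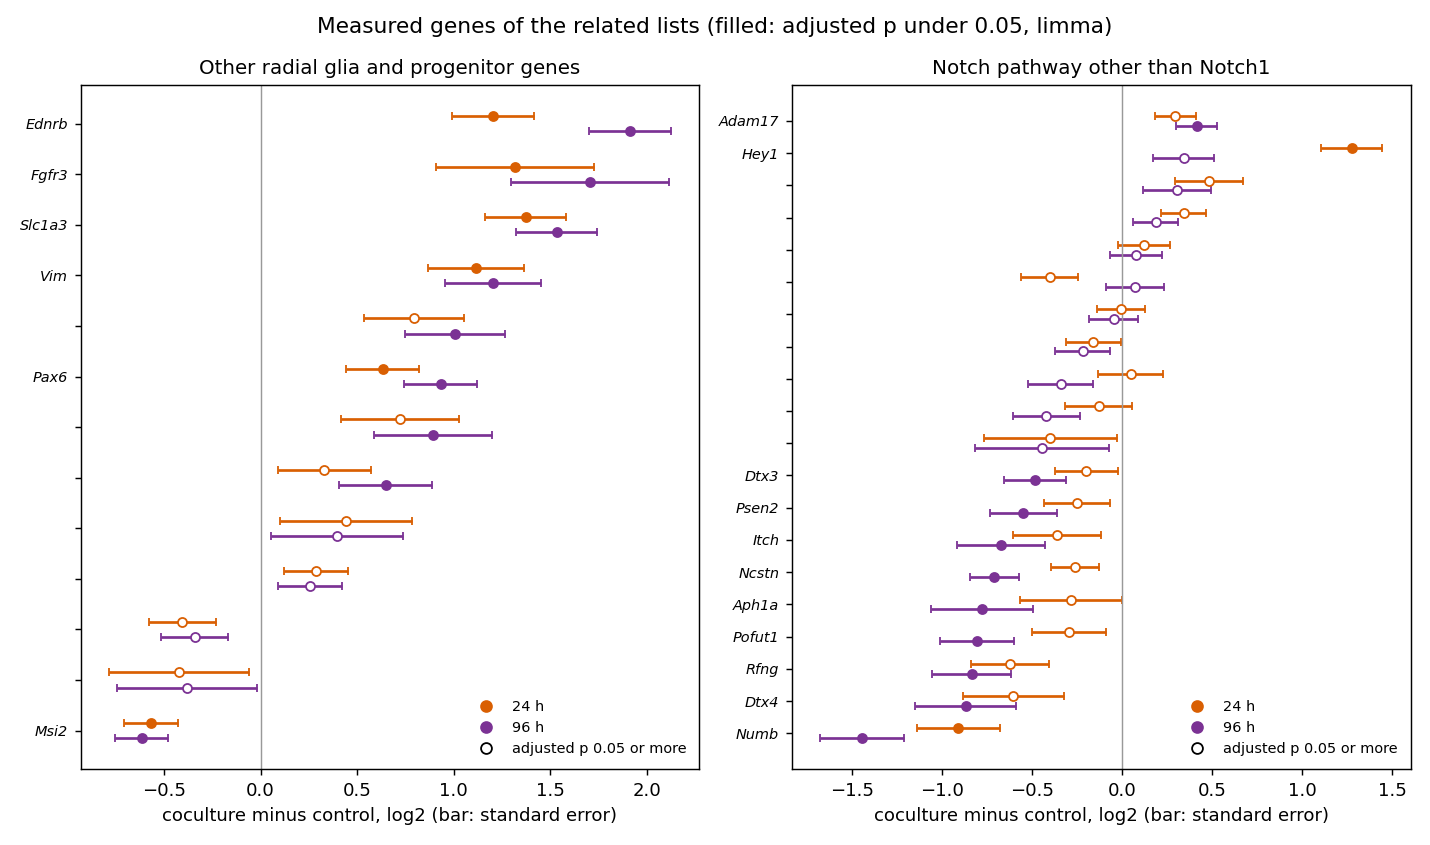
Coculture minus control log2 differences (points, with standard errors) of measured radial glia and progenitor genes other than the 5 (left) and of the Notch pathway other than Notch1 (right) at 24 h and 96 h, with names for genes given in the text, 1 gene of each list not shown, and filled points for an adjusted p under 0.05 in limma. Most points on the left lie above 0, up to 1.91 for Ednrb, and at 96 h most on the right lie below 0, down to -1.45 for Numb.

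Of the ligands, partners and relatives of Ptprz1, 18 of 27 genes were measured, and at 24 h 1 rose and 1 fell, at 96 h 3 rose and 2 fell. Of all genes 2.76% rose and 7.75% fell at 24 h, and 7.36% and 41.5% at 96 h, so the share that fell at 96 h was below that of all genes. In the blocked fit 2 rose and 4 fell at 24 h, beside 9.12% and 38.8% of all genes. At 96 h 3 rose and 5 fell in that fit, beside 13.0% and 56.9%. Midkine (Mdk), one of its ligands, rose by 0.63 ± 0.18 (adjusted p = 0.0349) and 0.78 ± 0.18 (adjusted p = 0.00282), and was at 0.29 and 0.27, not called, with the hybridisation covariate. Without control replicate 4 at 24 h its 24 h call was lost (adjusted p = 0.0538). Pleiotrophin (Ptn), another ligand, stood at 0.12 ± 0.34 at 24 h and -0.62 ± 0.34 at 96 h and was not called. In the blocked fit Ptn was lower at 96 h (adjusted p = 0.02), and with the covariate it was at 0.05. The contactin Cntn3 and the receptor phosphatase Ptprm rose at 96 h, by 0.60 ± 0.18 and 1.52 ± 0.44, and Ptprm was at 0.07 with the covariate. Ptprn, a phosphatase-like protein of dense-core vesicles, fell by 0.72 and 1.20, and its relative Ptprn2 by 0.76 at 96 h. With the covariate Ptprn was at -0.44 and -0.77 and still called, and Ptprn2 was at 0.01 at 96 h and not called.

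Among relatives of the other members few genes were measured. Of 16 Sox genes other than Sox2, 3 were measured, and Sox6, a factor of progenitors and oligodendrocyte precursors, rose by 1.28 ± 0.20 and 1.05 ± 0.20. Sox11, a factor of immature neurons, stood at 0.06 ± 0.18 and -0.17 ± 0.18 and was not called between coculture and control. As a mean of 8 probe sets it fell with time in controls by 0.85 (adjusted p = 0.0347) and in cocultures by 1.08 (adjusted p = 0.00285), where 0.137% and 1.32% of genes fell. Without control replicate 4 at 24 h the adjusted p in controls was 0.113. Of 13 genes related to Fabp7, 2 were measured, and Fabp3, the heart-type carrier, fell by 0.55 and 0.82 as a mean of 2 probe sets, 1 of which stood at 0.01 and -0.05. In the blocked fit 2 of the 3 Sox genes rose and both genes related to Fabp7 fell, at each time. That fit called 9.12% of all genes higher and 38.8% lower at 24 h, and 13.0% and 56.9% at 96 h, so falls were common.

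Genes of glia moved in the same direction as Fabp7 and Sox2. Of 16 measured astrocyte genes of 21, 5 rose at 24 h and 10 at 96 h, with 2 falls at 96 h, and without control replicate 4 at 24 h 3 rose at 24 h. Of all genes 2.76% rose at 24 h and 7.36% at 96 h, where 41.5% fell. With the replicate block 8 astrocyte genes rose and 1 fell at 24 h, beside 9.12% and 38.8% of all genes. At 96 h 12 rose and 3 fell in that fit, beside 13.0% and 56.9%. Per array the mean of the list ran from -0.54 to -0.07 in controls and from 0.07 to 0.73 in cocultures at 24 h, and from -0.50 to -0.36 and from 0.50 to 0.97 at 96 h. Apoe rose by 2.07 ± 0.35 and 3.97 ± 0.35, and Gfap, the astrocyte filament protein, stood at 0.64 ± 0.24 (adjusted p = 0.0833, and 0.0259 with the block) at 24 h and rose by 2.32 ± 0.24 at 96 h. The connexin Gja1 rose by 2.51 ± 0.38 at 96 h, and Ndrg2 rose at both times.

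Of 9 measured oligodendrocyte lineage genes of 18, 4 rose at 24 h and 5 at 96 h, against 2.76% and 7.36% of all genes. The counts were the same in the blocked fit, which called 9.12% and 13.0% of all genes higher. Pdgfra, the growth factor receptor of the precursors, rose by 3.86 ± 0.33 and 4.36 ± 0.33, the transcription factor Olig1 by 3.61 ± 0.33 and 3.71 ± 0.33, and Bcas1 and Cnp rose as well. The list's mean per array ran from -1.16 to -0.56 in controls and from 0.38 to 0.83 in cocultures at 24 h, and from -1.35 to -0.63 and from 0.26 to 1.29 at 96 h. What share of the differences of Fabp7, Sox2, Ptprz1 and Notch1 goes with these glial genes was not tested.

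The cultures' labelled cell type was set against its markers, for which only the authors' present calls can be used. Of 25 neuronal genes 20 were among the named expressed genes, and 2 rose at 24 h, beside 2.76% of all genes. At 96 h 3 rose and 4 fell, where 7.36% of all genes rose and 41.5% fell. With the replicate block 4 rose and 5 fell at 24 h, beside 9.12% and 38.8% of all genes. At 96 h 4 rose and 8 fell in that fit, beside 13.0% and 56.9%, so the shares that fell were below those of all genes. With the hybridisation covariate 5 rose and 1 fell at 96 h, where 759 and 758 of 8052 genes did. At 96 h the neuronal splicing factor Rbfox3 rose by 0.57 ± 0.09 and the transcription factor Neurod1 by 0.72 ± 0.21. The neurofilament gene Nefl, at -2.0 ± 0.42, and the vesicular glutamate transporter Slc17a7, at -1.34 ± 0.30, fell at 96 h, and with the covariate they were at -0.64 and -0.39 and not called. Slc17a6, also a vesicular glutamate transporter, was at -1.12 ± 0.25 at 96 h and remained called with the covariate, at -0.98 (adjusted p = 0.0292). Of 19 subplate genes 8 were found, Nr4a2 and Ccn2 among them and Ngfr, which encodes the p75 receptor, not. At 24 h 0 of the 8 passed in limma, with 4 at an unadjusted p under 0.05. The blocked fit called 5, most of them lower, beside 9.12% of all genes higher and 38.8% lower. At 96 h 2 rose and 2 fell in limma, beside 7.36% and 41.5%. Ccn2 stood at -1.51 ± 0.53 and -1.84 ± 0.53, called at 96 h, and Nr4a2 at -0.74 ± 0.26 and 0.02 ± 0.26. Lpar1 rose by 1.03 ± 0.37 at 96 h. With the covariate Ccn2 was at -0.26 and Lpar1 at -0.19 at 96 h, neither called. Of 16 genes of microglia and macrophages 1 was found. Of 16 genes of fibroblasts, pericytes and endothelium 5 were found, and Fn1, the fibronectin gene, rose by 0.78 ± 0.23 and 1.10 ± 0.23, with the 24 h call lost without control replicate 4 (adjusted p = 0.0636).

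The genes whose values over the 20 arrays were most like those of the 5 are given as a description, since all share the same arrays and group differences. For Sox2 these were the glial RNA-binding protein Qki (r = 0.985), Pdgfra (0.984) and Olig1 (0.971), and for Fabp7 Olig1 (0.978), Pdgfra (0.965) and Sox2 (0.964). Olig1 averaged -2.48 ± 0.69 and -2.53 ± 0.62 in the 24 h and 96 h controls and 1.13 ± 0.53 and 1.18 ± 0.34 in the cocultures. Notch1 was closest to the RNA-binding protein Zfp36l1 (0.974), the ribonucleotide reductase subunit Rrm2 (0.972) and Pdgfra (0.963). The phosphacan probe set of Ptprz1 was closest to the docking protein Gab1 (0.964), the homeobox factor Meis1 (0.955) and Sox2 (0.95). Prom1 had lower values, with Mmd2 (0.878), Zfp462 (0.83) and Prkd3 (0.827), and its own correlation with the other members ran from 0.296 to 0.476.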

How the data were processed

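Per the file headers, the authors deposited linear ratios: each RMA value over the probe set's median in the 20 arrays. RMA and MAS5 are named in the submitters' processing notes, with versions and chip definition not given in the sources used here. Of 31099 probe sets, 31069 had a median of 1 within 0.001. The authors' other deposited table gave their mean ratio per group for probe sets called present in 10 of 20 arrays, per the file headers, with symbols and Entrez identifiers. Levels, signal over background and depth cannot be read from these ratios. A gene present in the cocultures alone could pass the present-call rule.

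The log2 of each ratio was fitted in R 4.3.3 with limma 3.58.1, 1 mean per group over all 20 arrays. The 57 control probe sets were dropped, and p-values were adjusted by Benjamini-Hochberg over the other 31042, with a threshold of 0.05. The fit was tested on simulated data. Gene lists used the mean log2 value of each gene's expressed probe sets, named through the deposited annotation and the RefSeq table of GRCr8 (11258 probe sets, 8052 genes), in a fit of its own. The members and lists were chosen with earlier results of these data known, and coculture differences of the members carry no test. Time and interaction p-values of the members come from the same arrays and are not independent of that choice. Named list genes are up to 4 per list with the largest called coculture difference, and every called gene of the Notch, Sox, fatty acid binding protein and Ptprz1 lists; Pax6, Rbfox3, Neurod1, Slc17a7, Nefl, Nr4a2 and Ngfr were partly chosen after their values were seen. Some genes chosen this way are left out here. Likeness was Pearson's r over 20 arrays, the 3 highest per member.

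The labels call the replicates biological and number them 1 to 5 in every group. Same-numbered arrays deviated together (all 30 pairs correlated at 0.243 or more, median 0.524, against -0.23 in other pairs), so the blocked fit is printed beside calls and counts of the text that differ in it. Alternatives were the block as a random term, the hybridisation controls as a covariate, equal medians, cyclic loess, expressed probe sets only, array weights, only the groups compared and each array left out; fits without replicate 5, and list counts without control replicate 4 at 24 h, were added after the data were seen.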

Additional observations from a re-analysis of the deposited data

Results flagged for a closer look

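Notch1 in cocultured replicate 5 at 96 h, at a log2 ratio of 1.44, lay far above the other 4 arrays of its group, which ran from 0.33 to 0.59. The gap to the nearest of them was 0.767 of the group's whole range, above the critical value of 0.71 of Dixon's test for 5 samples. Among the 24 groups of 5 arrays looked at (6 probe sets in 4 groups) this was the 1 so marked, and chance marks about 1 in 20. The same array had the highest hybridisation control mean, 1.62, and the widest interquartile range of log2 ratios, 1.27. Without it the Notch1 difference at 96 h was 1.45.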

How the results depend on the processing

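No result changed sign while called. The median coculture difference over the 6 probe sets, 1.65 at 24 h and 2.49 at 96 h, became 2.06 and 3.61 after cyclic loess, which gave Fabp7 8.21 and Sox2 4.31 at 96 h. Leaving out single arrays gave 1.54 to 1.72 and 2.36 to 2.57. The count of members that changed with time in the controls was 0 without and 3 with the replicate block as a fixed or random term, 3 with the hybridisation covariate, with block and covariate together and with array weights, and 2 without replicate 5. Leaving out single arrays gave 0 to 2, with 2 without control replicate 1 at 24 h or control replicate 5 at 96 h and 1 without cocultured replicate 5 at 24 h. For time in the cocultures it was 0 and became 1 with either replicate block and with the covariate. For the interaction it was 0 and became 2 with either replicate block and with array weights. Block and covariate together gave a Fabp7 difference of 6.68 and 8.31. That fit called 17 probe sets at 24 h and 6 at 96 h between coculture and control. The block alone called 8679 and 19239, so coculture differences of the joint fit are poorly determined. The block changed no other call of a member.

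Over all 31042 probe sets the block raised the calls from 1026 to 8679 at 24 h, from 9937 to 19239 at 96 h, from 45 to 777 with time in controls, from 310 to 4418 in cocultures and from 6 to 985 for the interaction. With the covariate the genes called higher and lower were 553 and 378 at 24 h instead of 222 and 624, and 759 and 758 at 96 h instead of 593 and 3341, so the split of rises and falls depends on it. Cyclic loess moved the median of all genes from -0.19 to -0.07 and from -0.34 to -0.12. The limits are 5 arrays a group, ratios with no signal over background, present calls for about 10 of 20 arrays as the single filter, and cultures of mixed cells.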

Other observations

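Of 13 measured cell division genes of a list of 27, 8 rose and 0 fell in coculture at 24 h, and at 96 h 5 rose and 2 fell. Of all genes 2.76% rose and 7.75% fell at 24 h, and 7.36% and 41.5% at 96 h. With the replicate block 9 rose and 2 fell at 24 h, beside 9.12% and 38.8% of all genes. At 96 h 6 rose and 3 fell in that fit, beside 13.0% and 56.9%. Without control replicate 4 at 24 h 6 rose at 24 h. Pclaf, a DNA replication factor, rose by 2.23 ± 0.16 and 1.52 ± 0.16, and was lower at 96 h than at 24 h in the cocultures by 0.63 (limma, adjusted p = 0.0396). Rrm2 rose by 1.55 ± 0.23 and 1.46 ± 0.23 and the mitotic kinase Cdk1 by 1.12 ± 0.18 and 1.23 ± 0.18. Ccna2 rose by 0.51 ± 0.12 at 24 h and stood at -0.04 ± 0.12 at 96 h.

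Within groups, after each group's mean was subtracted, the members followed different genes over the 20 arrays. The deviations of Fabp7 were most like those of Olig1 (r = 0.815) and Apoe (0.756) and those of Prom1 like those of Cd44, a hyaluronan receptor (0.881). Notch1 was closest to Spsb4 (0.943). Between members the deviations correlated at 0.647 for Fabp7 and Sox2, 0.597 for Ptprz1 and Sox2 and 0.514 for Notch1 and Sox2, and at 0.136 for Fabp7 and Notch1. Single arrays weigh heavily in these values. Control replicate 4 at 24 h had Fabp7 at -0.98 against a group mean of -3.85. Apoe and Sox2 were also highest on that array among the 24 h controls. Replicate 5 was the highest Notch1 array of each group. Correlations without these arrays are not given here.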
